A study of Mus musculus with 18 samples.

Results

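The 9 genes described here encode subunits of the cytoplasmic dynein motor (Dync1h1, Dync1i1, Dync1i2, Dync1li1 and Dync1li2) and of its activator dynactin (Dctn1, Dctn2, Dctn3 and Dctn4). They were taken by symbol from the annotation of the arrays and are 9 of the 18191 genes tested, with 17 of the 34934 probe sets that name a single gene and have a value on every array. RNA of cultured mouse motoneurons was hybridised to 18 Affymetrix mouse genome arrays, 3 in each of 6 groups. The groups were the axonal and the somatodendritic (cell bodies with dendrites) compartments of cultures given a lentivirus with a short hairpin RNA against Smn (Smn knockdown), cultures given the empty lentiviral vector, and untreated wild-type cultures. Motoneurons were isolated from E12.5 spinal cords by panning on an antibody to p75 and were grown for 7 days in microfluidic chambers with CNTF at 5 ng/ml on both sides and BDNF at 20 ng/ml on the axonal side. The labels do not name a promoter for the hairpin, and they do not state whether the 3 arrays of a group stem from independent cultures, so p-values measure the spread between arrays.

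Dynein is the motor that carries organelles, signalling endosomes and RNA-protein particles along microtubules toward their minus ends, which in an axon means from the terminal back to the cell body. Dynactin is a large complex built around a short actin-like filament, and it joins dynein to its cargo adaptors and lets the motor run over long distances. Motoneurons, whose axons are among the longest in the body, are sensitive to faults in both complexes: dominant mutations of human DYNC1H1 cause a form of spinal muscular atrophy that affects mainly the legs, and mutations of human DCTN1 cause motor neuron disease.

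Dync1h1 and Dctn2 were the members whose 3 somatodendritic groups lay fully apart in level, and for that reason the RefSeq sequence around their annotated starts (GRCm38.p6, 250 bases before to 50 after the start, plus strand for both) is shown. The Dync1h1 window is chr12:110601145-110601444 and the Dctn2 window is chr10:127266012-127266311. Capitals mark matches on either strand to the GC box GGGCGG or to the CCAAT box CCAAT, and matches that overlap are capitalised as a single run.
Dync1h1: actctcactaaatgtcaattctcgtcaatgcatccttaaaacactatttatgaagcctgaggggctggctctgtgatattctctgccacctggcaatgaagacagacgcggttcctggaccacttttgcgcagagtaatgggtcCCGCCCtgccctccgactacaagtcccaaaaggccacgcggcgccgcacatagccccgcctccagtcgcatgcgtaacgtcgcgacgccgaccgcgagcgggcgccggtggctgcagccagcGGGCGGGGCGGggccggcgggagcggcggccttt
Dctn2: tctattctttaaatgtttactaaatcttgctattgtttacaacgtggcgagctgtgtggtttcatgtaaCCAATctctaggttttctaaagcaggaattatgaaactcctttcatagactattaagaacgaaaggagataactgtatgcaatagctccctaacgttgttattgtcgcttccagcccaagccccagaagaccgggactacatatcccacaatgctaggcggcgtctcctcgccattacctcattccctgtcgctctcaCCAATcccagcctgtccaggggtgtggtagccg
The Dync1h1 window held 3 matches to GGGCGG, 2 of which overlapped, and 0 to CCAAT, with a GC content of 62.3% and 30 CpG dinucleotides. The Dctn2 window held 0 matches to GGGCGG and 2 to CCAAT, with a GC content of 45.7% and 11 CpG dinucleotides. Over the 32851 windows of the same length in the RefSeq table, 35.7% held GGGCGG and 37.4% held CCAAT, and the medians were 52.7% GC and 7 CpG dinucleotides. Entries existed for 7 of the 9 members, 9 windows in all, with none for Dync1li2 and Dctn4. None of the 9 windows held the TATA box TATAAA, found in 13.6% of all windows. A match of letters is a description and says nothing of binding.

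Array values are the deposited log2 values. Genes such as olfactory receptors and defensins, with 150 probe sets, served as a guide to background: their 95th percentile on an array is its background level, and a probe set at or below that level is called not above background. Between 10005 and 10536 genes were above background on each somatodendritic array, against 6250 to 7317 on axonal knockdown, 6778 to 10122 on axonal empty vector and 8849 to 10152 on axonal wild-type arrays. Across genes, r with the mean of the somatodendritic controls was lowest on axonal knockdown array 1 (0.539) and, among axonal controls, on empty vector array 2 (0.705), and it was 0.979 or more on every somatodendritic array. The only probe set for Smn1, the gene targeted, was above background on 1 of 18 arrays, so it does not check the labels. Of 8 motoneuron markers, 5 (Chat, Slc18a3, Slc5a7, Isl2 and Mnx1) were not above background on any somatodendritic wild-type or empty vector array, while all 6 pan-neuronal markers were above it on all somatodendritic arrays. In bulk RNA such as this, fewer cells of a type and less RNA per cell cannot be told apart.

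Of the 9 members, 8 were above background on all 3 arrays of each somatodendritic group. In axons 4 members were above it on all 3 Smn knockdown arrays, 6 on all 3 empty vector arrays and 7 on all 3 wild-type arrays. Dync1li1, a light intermediate chain that holds cargo adaptors to the motor, was not above background on any of the 18 arrays, with values between 5.80 and 6.75. No fold is therefore given for it.

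**Figure D1:**
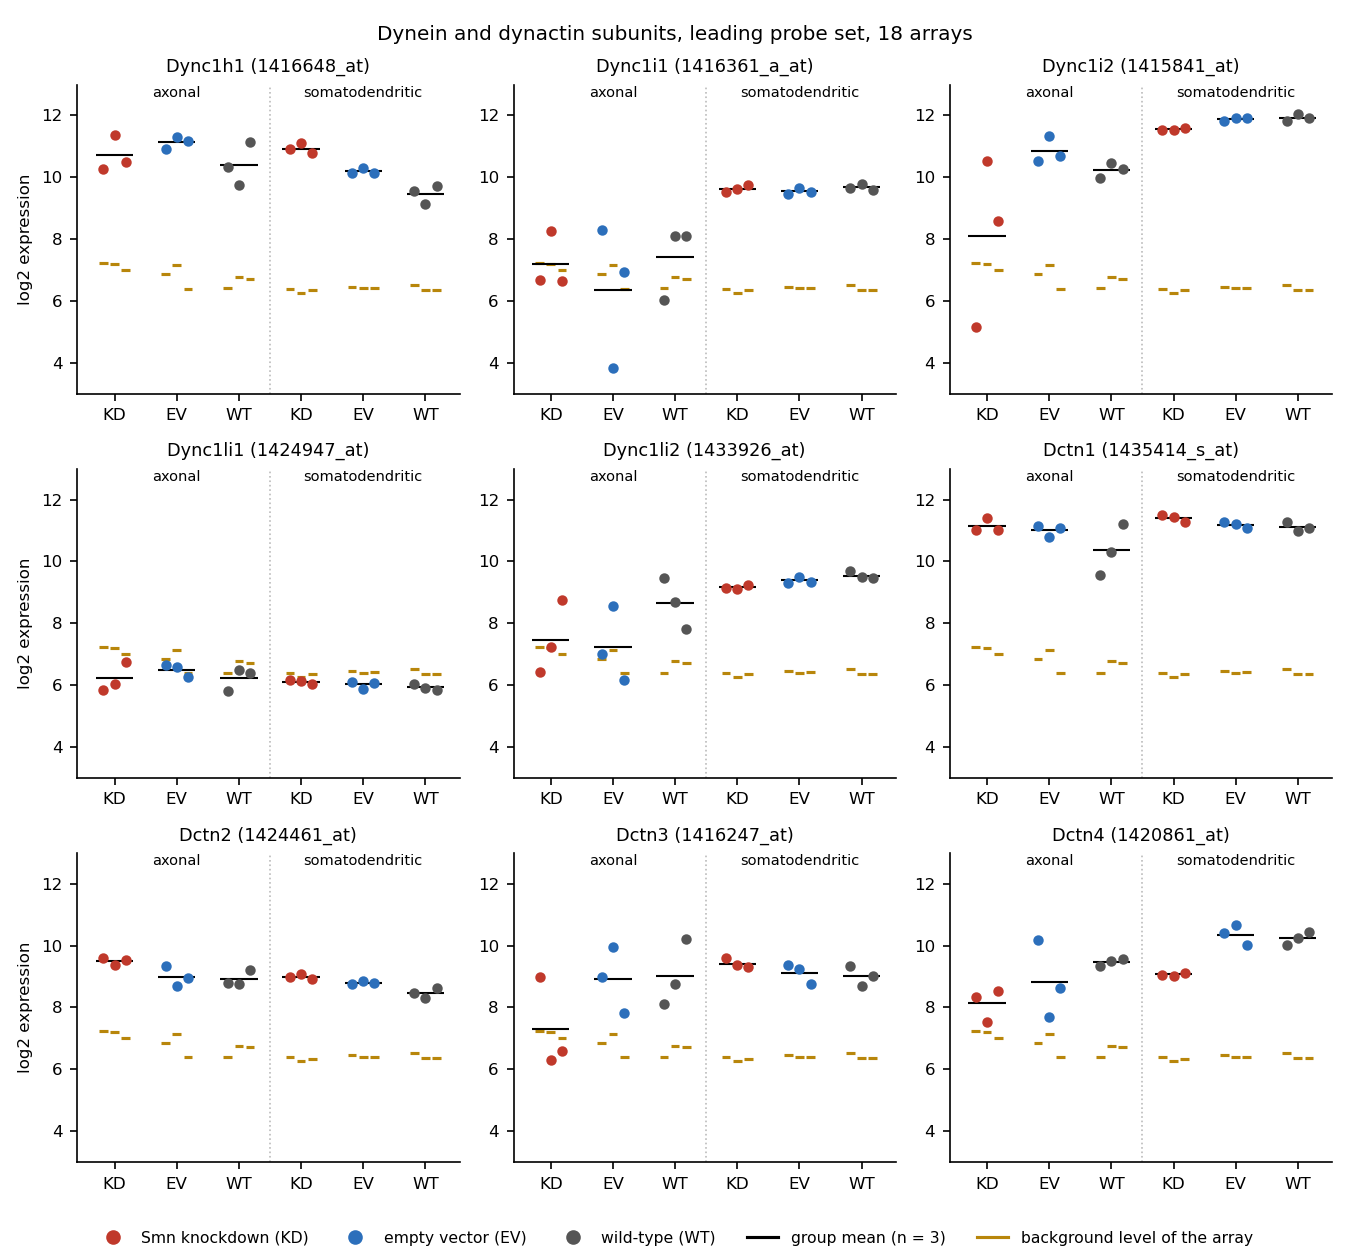
Log2 level (vertical axis) of the leading probe set of each of the 9 members on all 18 arrays, by compartment and group, with the group mean as a black line and the background level of each array as a short ochre line. Somatodendritic points lie close together in each group, axonal points spread widely for Dync1i1, Dync1i2, Dync1li2 and Dctn3, and Dync1li1 lies below the background line on every array.

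In the somatodendritic compartment the heavy chain gene Dync1h1 was higher in Smn knockdown than in both kinds of control, and Dync1i2 was slightly lower. The dynactin gene Dctn4 was lower by its leading probe set, while another of its probe sets was higher. The comparison asks how cell body transcripts differ between Smn knockdown and empty vector cultures, both of which were given a lentivirus. Against empty vector 3 of 9 members passed the test (1 higher, 2 lower), where 28% of all genes passed (2267 genes higher and 2821, or 15.5%, lower). The share among the members is near that of all genes. Among the 10405 genes above background on all 3 arrays of some somatodendritic group, 43.5% passed. The test was limma on the 9 arrays of the compartment, p-values were adjusted by Benjamini-Hochberg across all genes, and a gene is called below 0.05.

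Dync1h1 encodes the heavy chain, which hydrolyses ATP, walks on the microtubule and carries all other dynein subunits. Its somatodendritic log2 values were 10.91, 11.11 and 10.77 in knockdown, 10.13, 10.30 and 10.15 in empty vector and 9.56, 9.12 and 9.73 in wild-type cultures. Every knockdown array lay above every empty vector array, and every empty vector array lay above every wild-type array. The mean was 10.93 ± 0.17 in knockdown and 10.20 ± 0.09 in empty vector (SD, n = 3 each), a log2 difference of 0.73 with a limma standard error (SE) of 0.14, or 1.66-fold (limma, adjusted p = 0.00213). Against wild-type, at 9.47 ± 0.31, the difference was 1.46 (SE 0.14), or 2.75-fold (limma, adjusted p = 1.06e-05). The second probe set for Dync1h1 was not above background on any array.

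Dync1h1 was also the only member called between empty vector and wild-type in the somatodendritic compartment. The log2 difference was 0.73 (SE 0.14), or 1.65-fold (limma, adjusted p = 0.0224), in a comparison where 2% of all genes were called and 0.484% were called as higher. The step between the controls was thus as large as the step between knockdown and empty vector. This call did not stand when any of empty vector arrays 1, 2 and 3 or wild-type arrays 1 and 2 was left out (log2 differences of 0.55 to 0.77, limma adjusted p up to 0.0744), and it stood without wild-type array 3 (0.85, limma adjusted p = 0.00515).

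The intermediate chains anchor the light chains on the heavy chain and bind dynactin through Dctn1. Dync1i2, the form made in most cell types, read 11.52, 11.53 and 11.58 in knockdown, 11.83, 11.92 and 11.93 in empty vector and 11.82, 12.05 and 11.90 in wild-type cell bodies. The 3 knockdown arrays lay below all 6 control arrays, which overlapped each other. The difference was -0.35 (SE 0.085), or 1.27-fold lower, against empty vector (limma, adjusted p = 0.00865) and -0.38 (SE 0.085) against wild-type (limma, adjusted p = 0.0039).

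Dync1i1 is the intermediate chain found mainly in neurons. It read 9.52, 9.61 and 9.75 in knockdown, 9.46, 9.66 and 9.52 in empty vector and 9.66, 9.77 and 9.60 in wild-type cell bodies, and the 3 groups overlapped. The log2 difference was 0.08 against empty vector (95% confidence interval -0.12 to 0.28, limma adjusted p = 0.596) and -0.05 against wild-type (-0.25 to 0.15, limma adjusted p = 0.717).

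Dync1li2, the other light intermediate chain, had probe sets that moved in opposite directions. The probe set with the higher mean, 1433926_at, read 9.15, 9.12 and 9.23 in knockdown, 9.31, 9.51 and 9.34 in empty vector and 9.68, 9.48 and 9.45 in wild-type cell bodies. Knockdown arrays were the lowest 3 of the 9. The difference was -0.22 (SE 0.093, limma adjusted p = 0.107) against empty vector and -0.37 (SE 0.093, limma adjusted p = 0.0077) against wild-type. Probe set 1433925_at read 8.60, 8.49 and 8.46 in knockdown, 7.92, 8.09 and 8.01 in empty vector and 8.13, 8.26 and 7.97 in wild-type cell bodies. Here the knockdown arrays were the highest 3. Its difference was 0.51 (SE 0.096, limma adjusted p = 0.00195 over all probe sets) against empty vector and 0.39 (limma adjusted p = 0.00726 over all probe sets) against wild-type. No direction is therefore given for the gene.

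**Figure D2:**
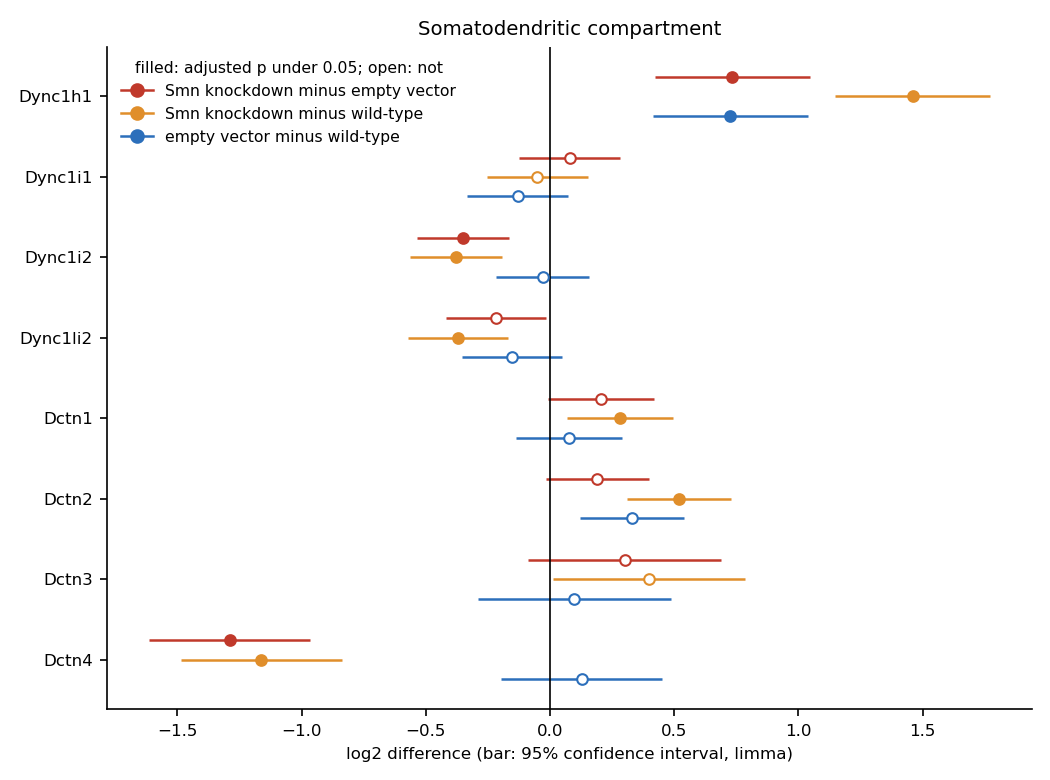
Log2 difference (horizontal axis) of 8 members in the somatodendritic compartment for Smn knockdown minus empty vector, Smn knockdown minus wild-type and empty vector minus wild-type, with 95% confidence intervals and filled points at a limma adjusted p below 0.05. Dync1h1 lies right of 0 in all 3 comparisons, Dctn4 lies left of 0 in both knockdown comparisons at -1.29 and -1.16, and Dync1li1 is left out because it was not above background.

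Among the dynactin genes, Dctn1 and Dctn2 were modestly higher in knockdown than in wild-type cell bodies, Dctn3 did not pass the test and Dctn4 was lower by its leading probe set. Dctn1 encodes the largest subunit, the arm that grips the microtubule and binds the dynein intermediate chains. Its leading probe set, 1435414_s_at, is marked by its name as reading more than 1 transcript. That probe set read 11.50, 11.43 and 11.27 in knockdown, 11.26, 11.22 and 11.10 in empty vector and 11.26, 10.999 and 11.09 in wild-type cell bodies. The knockdown arrays were the highest 3, the lowest of them by a narrow margin. The difference was 0.20 (SE 0.098, limma adjusted p = 0.151) against empty vector and 0.28 (SE 0.098, limma adjusted p = 0.0415) against wild-type. Leaving out knockdown array 1 or 2, or wild-type array 2 or 3, ended that call (0.22 to 0.27, limma adjusted p up to 0.148). The other probe set, 1422521_at, was not above background on any somatodendritic array.

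Dctn2 encodes dynamitin, a subunit of the shoulder that links the arm to the filament and whose overproduction breaks dynactin apart. Values were 8.98, 9.07 and 8.93 in knockdown, 8.77, 8.85 and 8.79 in empty vector and 8.48, 8.31 and 8.64 in wild-type cell bodies. As for Dync1h1, the 3 groups did not overlap and stood in the order knockdown, empty vector, wild-type. All 3 groups stood apart in this order in 2 of 9 members, against 2.94% of all genes. The difference was 0.52 (SE 0.096), or 1.43-fold, against wild-type (limma, adjusted p = 0.00107), 0.19 against empty vector (95% confidence interval -0.02 to 0.40, limma adjusted p = 0.170) and 0.33 for empty vector against wild-type (limma adjusted p = 0.110). That last difference passed without wild-type array 3 (0.41, limma adjusted p = 0.0248).

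Dctn3 encodes another shoulder subunit. It read 9.59, 9.36 and 9.30 in knockdown, 9.36, 9.25 and 8.74 in empty vector and 9.35, 8.69 and 9.02 in wild-type cell bodies, and all 3 groups overlapped. The difference was 0.30 (95% confidence interval -0.09 to 0.69, limma adjusted p = 0.250) against empty vector and 0.40 (limma adjusted p = 0.104) against wild-type, which passed without wild-type array 1 (0.56, limma adjusted p = 0.0302).

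Dctn4 showed the largest somatodendritic difference of the 9 members against empty vector. It encodes a subunit of the complex at the pointed end of the dynactin filament. Leading probe set 1420861_at read 9.06, 9.03 and 9.12 in knockdown, 10.41, 10.66 and 10.01 in empty vector and 10.02, 10.24 and 10.44 in wild-type cell bodies. The knockdown arrays lay close together and below all 6 controls, which overlapped. The mean was 9.07 ± 0.05 in knockdown and 10.36 ± 0.32 in empty vector (SD, n = 3 each), a difference of -1.29 (SE 0.15), or 2.44-fold lower (limma, adjusted p = 4.98e-05). Against wild-type, at 10.23 ± 0.21, it was -1.16 (SE 0.15), or 2.24-fold lower (limma, adjusted p = 7.65e-05).

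The other 5 probe sets of Dctn4 did not all follow. Probe set 1420862_at read 7.85 to 7.95 in knockdown, 8.43 to 8.78 in empty vector and 8.56 to 8.84 in wild-type cell bodies, with a difference of -0.73 (SE 0.11, limma adjusted p = 0.000434 over all probe sets) against empty vector. The knockdown arrays were again below all controls. By contrast 1458541_at was above background only on the knockdown arrays, at 6.73, 7.01 and 6.59, against 5.60, 6.00 and 5.97 in empty vector and 5.73, 6.17 and 5.64 in wild-type. That is at least 1.28-fold higher in knockdown than either control, the control arrays being set at their background level (limma adjusted p = 0.000991 against empty vector and 0.000632 against wild-type over all probe sets). The remaining 3 probe sets were not above background on any somatodendritic array. Among them 1420863_at was called lower in knockdown at these dim readings. Its differences were -0.60 against empty vector (limma adjusted p = 0.0004985) and -0.37 against wild-type (limma adjusted p = 0.00931), both over all probe sets. The place of the probe sets along the Dctn4 transcript was not used here.

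**Figure D3:**
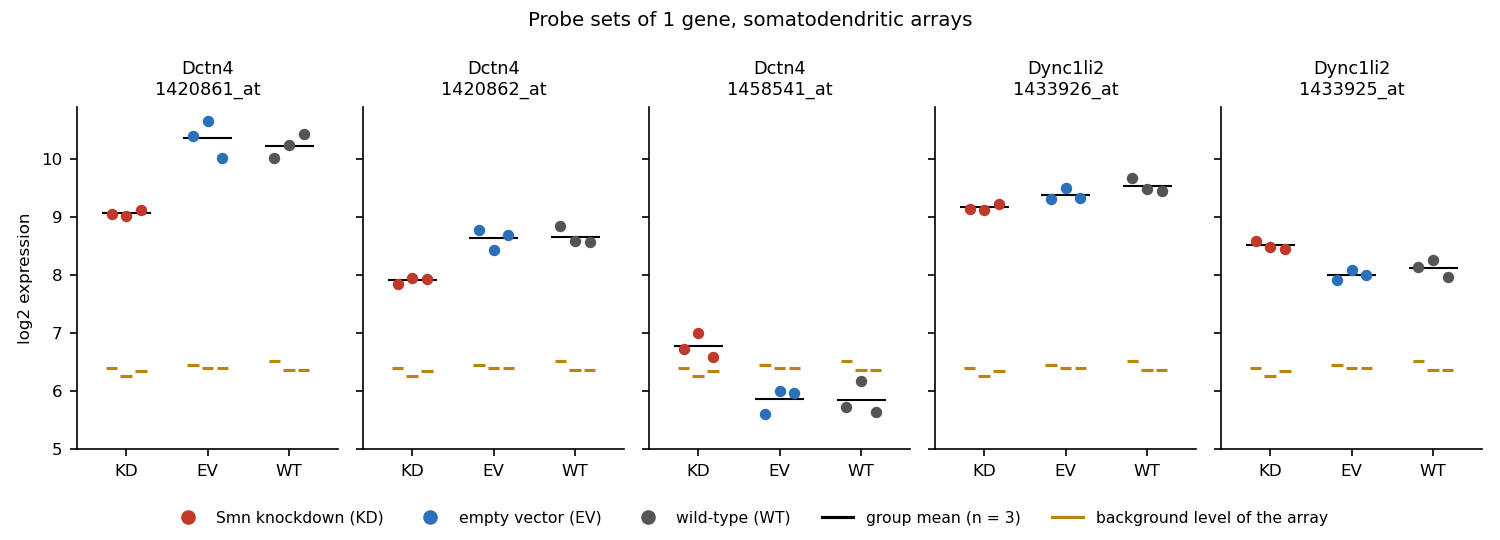
Log2 level (vertical axis) on the 9 somatodendritic arrays of 3 probe sets for Dctn4 and the 2 probe sets for Dync1li2, with group means as black lines and array background levels as ochre lines. Probe sets 1420861_at and 1420862_at are lowest in knockdown and 1458541_at is above background only there, and the 2 probe sets of Dync1li2 move in opposite directions.

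Against wild-type 6 of 9 members passed in cell bodies, 3 higher (Dync1h1, Dctn1 and Dctn2) and 3 lower (Dync1i2, Dync1li2 by its leading probe set, and Dctn4). Of all genes 36% passed, 15.6% as higher and 20.4% as lower. Among the 10405 genes above background on all 3 arrays of some somatodendritic group, 53.8% passed. Counted by arrays that do not overlap, 6 of 9 members separated knockdown from empty vector, against 43.3% of all genes, and 6 of 9 separated it from wild-type, against 48.7%. Between the controls 2 of 9 members (Dync1h1 and Dctn2) did so, against 18.9%. Over the group means, 5 of 9 members stood in the order knockdown, empty vector, wild-type, an order held by 22.3% of all genes. They were Dync1h1, Dctn1, Dctn2, Dctn3 and Dync1li1, the last not above background. The opposite order was held by Dync1i2 and Dync1li2 and by 29.7% of all genes. The comparisons with empty vector and with wild-type share the knockdown arrays.

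With all 18 arrays in a single fit, which takes the spread from both compartments, none of these somatodendritic calls stood (limma, Dync1h1 against wild-type adjusted p = 0.0551, against empty vector 0.945, Dctn4 against empty vector 0.520). Array titles of the knockdown samples follow another scheme than those of all controls, so any difference in handling and the knockdown cannot be told apart.

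Several cell type and RNA measures moved with the knockdown in the same cell bodies. The mean log2 level of 10 microglia and macrophage markers was 8.11 to 8.47 on knockdown, 5.73 to 6.04 on empty vector and 7.66 to 7.76 on wild-type arrays. All 10 were higher in knockdown than in empty vector and 7 higher than in wild-type, and Itgam was not above background on any. For 4 markers of cycling cells the mean was 6.86 to 7.43 on knockdown, 8.67 to 9.11 on empty vector and 8.95 to 9.20 on wild-type arrays, and all 4 were lower in knockdown. Of 5 oligodendrocyte lineage markers 4 were lower than in empty vector, and of 6 astrocyte markers 4 were lower. For 6 pan-neuronal markers the mean was 11.225 to 11.315 on knockdown, 11.018 to 11.245 on empty vector and 10.876 to 10.976 on wild-type arrays. Of these 6, 1 was called higher and 2 lower against empty vector, and 3 higher and 2 lower against wild-type. Of 8 motoneuron markers 1 was higher and 1 lower than in empty vector, and 0 higher and 1 lower than in wild-type. The gap between the 3′ and 5′ Gapdh control probe sets, a measure of RNA and amplification quality, was 3.99 to 4.12 on knockdown, 3.53 to 3.68 on empty vector and 3.11 to 3.61 on wild-type arrays. The part of these measures in the results was not tested.

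Trappc3, Gfod2 and Rpl19 had somatodendritic patterns most like that of Dync1h1, with root-mean-square differences of 0.0837, 0.104 and 0.114 over the 9 arrays after each gene was centred on its own mean. They were the nearest of 9226 genes above background on all 9 arrays. Trappc3, which belongs to a vesicle-tethering complex, averaged 9.98 in knockdown, 9.28 in empty vector and 8.59 in wild-type cell bodies. Of the other members Dctn2 was nearest to Dync1h1 at rank 792, with a difference of 0.396, since its steps were smaller. For Dctn1 the 3 nearest genes were Rusc1 (0.0332), Aarsd1 (0.0491) and Pus1 (0.0505), and among members Dctn2 was nearest at rank 1643.

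Other genes of the dynein pathway were counted from 4 lists. For knockdown against empty vector in cell bodies, 28% of all 18191 genes were called, 2267 as higher and 2821, or 15.5%, as lower. Of the dynactin subunits beyond the 9 members, 3 of 6 measured were higher in knockdown than in empty vector cell bodies and 0 lower, with a list median of 0.13 against -0.02 over all genes. Actr1a, the actin-like protein of which the dynactin filament is made, was 10.21 in knockdown and 9.09 in empty vector (difference 1.12, SE 0.10, limma adjusted p = 7.49e-06). Capzb, a subunit of the cap on the filament's barbed end, was higher by 0.59 (limma adjusted p = 0.00501) and Dctn5, a partner of Dctn4 at the pointed end, by 0.27 (limma adjusted p = 0.030). These 3 genes moved in the direction opposite to that of the leading probe set of Dctn4. All 3 were read by probe sets whose names mark them as reading more than 1 transcript.

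Among 6 dynein light chains measured, 1 was higher and 1 lower, to be read beside the same shares of all genes, as are the counts that follow. Dynll2, a light chain of the LC8 type, averaged 12.46 in knockdown and 11.55 in empty vector cell bodies (difference 0.91, SE 0.086, limma adjusted p = 9.89e-06), by a probe set whose name marks it as reading more than 1 transcript. The lower gene, Dynlrb2, was not above background in either group. Of 21 regulators and cargo adaptors 4 were higher (Bicd2, Rab11fip3, Mapre1 and Hap1) and 5 lower (Nde1, Ninl, Spdl1, Nin and Hook3), with a list median of 0.03, and Ninl and Spdl1 were not above background in either group. Bicd2, an adaptor that activates dynein and is mutated in a human spinal muscular atrophy of the legs, was 11.81 in knockdown and 11.25 in empty vector (difference 0.56, SE 0.092, limma adjusted p = 0.000619). Nde1, a dynein partner best known from dividing neural progenitors, was not above background on any knockdown array and was at least 1.49-fold lower than in empty vector (limma adjusted p = 0.000145), with the cycling cell markers lower as given above. Of the 2 subunits measured for the dynein of cilia, Dync2h1 and Dync2li1, 0 passed against empty vector. At an unadjusted limma p under 0.05 there were 0 of them, against 37.6% of all genes. Dync2li1 was higher than in wild-type (0.60, SE 0.13, limma adjusted p = 0.00324).

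In axons no member passed the test in any comparison. The counts were 0 of 9 for knockdown against empty vector (0.176% of all genes called), 0 of 9 for knockdown against wild-type (0.099% called) and 0 of 9 for empty vector against wild-type (0% called). At an unadjusted limma p under 0.05 these counts were 1 (Dync1i2, against 18.2% of all genes), 1 (Dctn4, against 20.9%) and 0 (against 3.31%). Counted by arrays that do not overlap, 1 of 9 members separated knockdown from empty vector (Dctn2, against 21.8% of all genes), 2 separated knockdown from wild-type (Dctn2 and Dctn4, 28.8%) and 1 separated empty vector from wild-type (Dync1i2, 8.83%). Axonal arrays varied far more: the pooled SD within groups was 0.533 for Dync1h1 in axons against 0.213 in cell bodies and 1.60 against 0.0769 for Dync1i2. Over the members the ratio of axonal to somatodendritic SD ran from 2.38 (Dctn2) to 20.9 (Dync1i2). For the 9227 genes above background on all somatodendritic arrays, the median SD was 0.827 in axons and 0.125 in cell bodies.

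Dync1i2 had the widest axonal spread of the members. It read 5.14, 10.54 and 8.59 in knockdown, 10.52, 11.34 and 10.68 in empty vector and 9.96, 10.45 and 10.28 in wild-type axons. Knockdown array 1 was below background for it and knockdown array 2 lay within the controls. The difference was -2.76 (SE 1.13, 95% confidence interval -5.33 to -0.18, limma adjusted p = 0.245) against empty vector. Without knockdown array 1 it was -1.28 and without knockdown array 2 it was -3.98, and the call was absent in both.

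Dync1h1 in axons read 10.27, 11.37 and 10.50 in knockdown, 10.92, 11.30 and 11.17 in empty vector and 10.34, 9.74 and 11.13 in wild-type, and all 3 groups overlapped. The difference between knockdown and empty vector was -0.42 (SE 0.42, 95% confidence interval -1.39 to 0.55, limma adjusted p = 0.651). Dync1i1 was above background on 1 of 3 knockdown, 2 of 3 empty vector and 2 of 3 wild-type axonal arrays, with values between 3.84 and 8.30. Dync1li2 ran from 6.41 to 8.76 in knockdown, 6.15 to 8.57 in empty vector and 7.80 to 9.45 in wild-type axons, and the groups overlapped.

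Dctn2 was the steadiest member in axons. Its values were 9.61, 9.36 and 9.54 in knockdown, 9.35, 8.68 and 8.97 in empty vector and 8.80, 8.74 and 9.22 in wild-type axons. The knockdown arrays lay above all 6 controls, as in cell bodies. The difference was 0.50 (SE 0.28, limma adjusted p = 0.381) against empty vector and 0.58 (SE 0.28, limma adjusted p = 0.276) against wild-type. Dctn1 read 11.01, 11.41 and 11.02 in knockdown, 11.16, 10.79 and 11.08 in empty vector and 9.57, 10.30 and 11.21 in wild-type axons, and the groups overlapped.

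Dctn3 read 8.99, 6.28 and 6.59 in knockdown, 8.97, 9.96 and 7.84 in empty vector and 8.11, 8.76 and 10.20 in wild-type axons. Knockdown arrays 2 and 3 were below background for it, while array 1 lay among the controls. The difference against empty vector was -1.63 (SE 0.87, 95% confidence interval -3.61 to 0.35, limma adjusted p = 0.365). Dctn4 read 8.35, 7.53 and 8.53 in knockdown, 10.18, 7.69 and 8.62 in empty vector and 9.35, 9.51 and 9.58 in wild-type axons, with knockdown below every wild-type array and overlapping empty vector. Its difference was -0.70 (SE 0.59, limma adjusted p = 0.575) against empty vector and -1.34 (SE 0.59, limma adjusted p = 0.238) against wild-type. The difference from empty vector was -0.02 without empty vector array 1 and -1.26 without empty vector array 2.

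**Figure D4:**
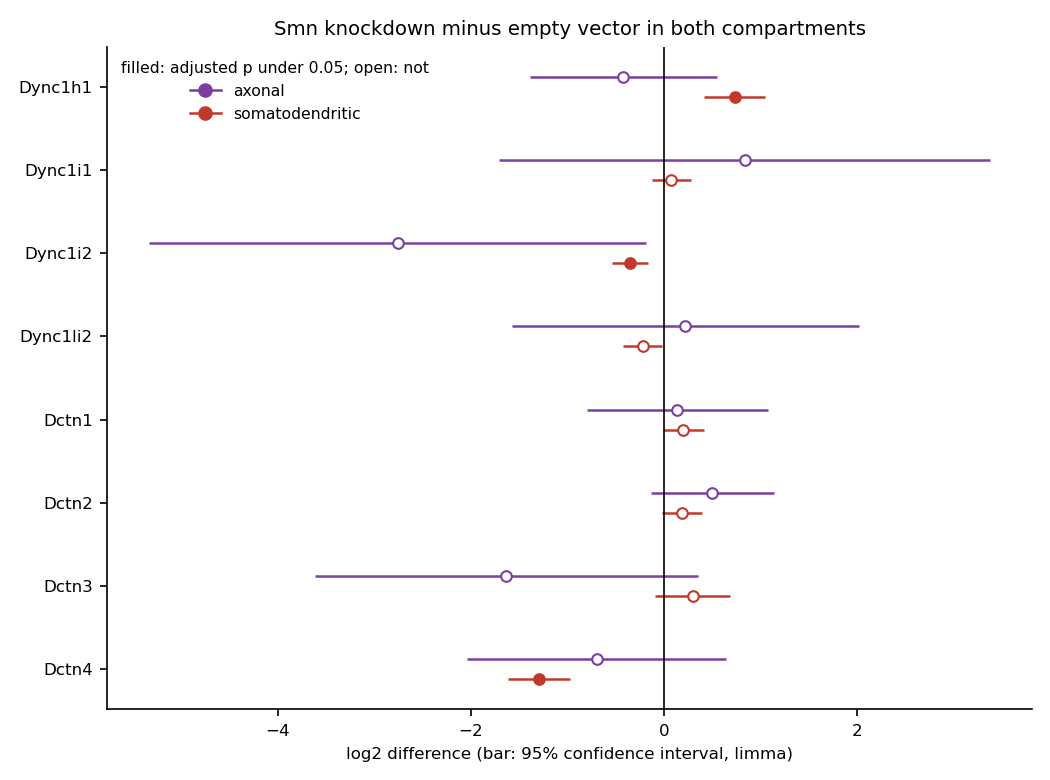
Log2 difference (horizontal axis) between Smn knockdown and empty vector for 8 members in the axonal and the somatodendritic compartment, with 95% confidence intervals and filled points at a limma adjusted p below 0.05. Axonal intervals are several times wider than the somatodendritic ones and no axonal point is filled.

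Whether the knockdown difference itself differed between the compartments was tested as an interaction over all 18 arrays. Of the 9 members 0 passed, where 6.77% of all genes were called. At an unadjusted limma p under 0.05 there was 1 member of 9, against 22.3% of all genes. For Dync1h1 the axonal difference minus the somatodendritic difference was -1.15 (SE 0.46, 95% confidence interval -2.13 to -0.17, limma adjusted p = 0.150). For Dync1i2 it was -2.41 (SE 1.21, limma adjusted p = 0.261) and for Dctn3 it was -1.93 (SE 0.95, limma adjusted p = 0.249). Without axonal knockdown array 2 the interaction passed for Dync1h1 (-1.48, limma adjusted p = 0.0358) and for Dync1i2 (-3.63, limma adjusted p = 0.0169). Without axonal knockdown array 1 the values were -0.93 for Dync1h1 (limma adjusted p = 0.262) and -0.93 for Dync1i2 (limma adjusted p = 0.347). Outside the members, 1 of 21 regulators passed: Nde1 stood at 7.30 in axonal knockdown and 5.88 in axonal empty vector, against 6.12 in somatodendritic knockdown and 6.91 in somatodendritic empty vector (limma adjusted p = 0.000471). It was above background on 2 of 3 axonal knockdown arrays and on none of the axonal empty vector and somatodendritic knockdown arrays, so no size is given for this difference.

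Set against cell bodies, control axons held relatively more Dync1h1 and relatively less Dync1i1 transcript, and Dctn2 passed as higher in axons by a small margin. This comparison asks which subunit transcripts are represented in the axon. Among the members 5 of 9 passed for the mean of the empty vector and wild-type groups (2 higher, 3 lower in axons), where 61.6% of all genes passed, 35.7% as higher and 25.9% as lower. Arrays did not overlap in 2 of 9 members (Dync1i1 and Dync1i2), against 43.5% of all genes. The authors normalized the compartments apart, so differences are relative to each compartment's own distribution. The median of the log2 differences over all genes was 0.18. Scaling all arrays together by quantiles moved the split among members to 2 higher and 1 lower.

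For Dync1h1 the control mean was 10.77 in axons and 9.83 in cell bodies, a difference of 0.93 (SE 0.23), or 1.91-fold (limma, adjusted p = 0.00368). It was 1.75 after joint quantile normalization and 1.09 with each array centred on its median, and passed under both. Dctn2 averaged 8.96 in control axons and 8.64 in control cell bodies, a difference of 0.32 (SE 0.13, limma adjusted p = 0.0472), which was 1.16 after joint quantile normalization (limma adjusted p = 5.25e-05). Without that scaling the Dctn2 call did not stand with a filter on dim genes (limma adjusted p = 0.0891), a trended and robust spread (0.182), only the control arrays in the fit (0.0739) or a replicate block (0.0790). Likewise 8 of 12 single-array omissions ended it (0.23 to 0.33), namely those of axonal wild-type array 3, axonal empty vector arrays 1 and 3, somatodendritic wild-type arrays 1 and 2, and all 3 somatodendritic empty vector arrays.

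Dync1i1 averaged 6.88 in control axons and 9.61 in control cell bodies, a difference of -2.73 (SE 0.60, limma adjusted p = 0.00186). Since 2 of the 6 axonal control arrays were not above background, no fold is given. All 6 axonal control arrays lay below all 6 somatodendritic control arrays. The call stood after joint quantile normalization (-2.09, limma adjusted p = 0.0306). By their leading probe sets Dync1li2 and Dctn4 were also lower in axons, with log2 differences of -1.52 (SE 0.42, limma adjusted p = 0.00699) and -1.14 (SE 0.32, limma adjusted p = 0.00748), Dync1li2 being above background on 5 of 6 axonal control arrays. Neither passed after joint quantile normalization, where the differences were -0.76 and -0.23. Probe set 1433925_at of Dync1li2 was at -0.41 and not called (limma adjusted p = 0.301 over all probe sets). For Dctn4, 1420862_at was at -1.92 (limma adjusted p = 0.00788 over all probe sets), above background on 3 of 6 axonal control arrays. Its probe sets 1458596_at and 1450030_at were called higher but were not above background on any control array.

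The members not called in controls were Dync1i2 (-1.37, SE 0.60, limma adjusted p = 0.061), Dctn1 (-0.47, SE 0.21, limma adjusted p = 0.0644), Dctn3 (-0.10, SE 0.47, limma adjusted p = 0.863) and Dync1li1. Under joint quantile normalization Dctn1 was at 0.30 and Dctn3 at 0.74, both of opposite sign. Without axonal wild-type array 3, Dctn1 passed at -0.68 (limma adjusted p = 0.00252). All 6 control axon arrays of Dync1i2 lay below all 6 control cell body arrays. When the fit held only the control arrays, leaving out the scattered knockdown axons, Dync1i2 passed at the same difference (SE 0.16, limma adjusted p = 0.000151), and Dctn2 did not pass, as given above.

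The probe sets of Dctn1 differed between compartments. Probe set 1422521_at was above background on 8 of 9 axonal arrays and on 0 of 9 somatodendritic arrays. It read 8.05, 7.79 and 7.47 on axonal knockdown arrays, 6.92, 7.09 and 6.77 on axonal empty vector arrays and 6.60, 6.99 and 7.10 on axonal wild-type arrays, while somatodendritic arrays lay between 5.82 and 6.33. Axonal knockdown arrays were the highest 3 of all 18. Its axonal minus somatodendritic difference was 1.67 in knockdown and 0.81 in controls (limma adjusted p = 9.18e-06 and 0.000332 over all probe sets), opposite in sign to the leading probe set. The background level was also higher on axonal knockdown arrays (7.22, 7.20 and 7.01) than on somatodendritic knockdown arrays (6.39, 6.26 and 6.34). This level was 6.39 to 7.15 on axonal and 6.36 to 6.53 on somatodendritic control arrays. With the compartments normalized apart, no fold is given for the probe set. Within axons its knockdown difference was 0.85 (SE 0.27, limma adjusted p = 0.169 over all probe sets) against empty vector. Its place on the transcript was not used here.

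In Smn knockdown cultures 5 of 9 members also passed between the compartments (1 higher, 4 lower in axons), where 61.7% of all genes passed, 34% as higher and 27.7% as lower. Arrays did not overlap in 6 of 9 members, against 70.3% of all genes. Dync1i2 averaged 8.09 in knockdown axons and 11.54 in knockdown cell bodies (difference -3.45, SE 0.85, limma adjusted p = 0.00316). Dctn3 was at 7.29 in axons and 9.42 in cell bodies (-2.13, SE 0.67, limma adjusted p = 0.0133), Dync1i1 at -2.43 (limma adjusted p = 0.0219), Dync1li2 at -1.70 (limma adjusted p = 0.022) and Dctn2 at 0.51 (limma adjusted p = 0.0288). In knockdown axons Dctn3 and Dync1i1 were above background on 1 of 3 arrays and Dync1i2 and Dync1li2 on 2 of 3, so the sizes of these 4 differences rest partly on readings at background. Dync1h1, higher in axons among controls, stood at 10.71 in knockdown axons and 10.93 in knockdown cell bodies (-0.22, SE 0.32, limma adjusted p = 0.572), with 0.59 after joint quantile normalization. Apart from the interaction with empty vector given above, the difference between the knockdown and control values was not tested.

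Of the 5 calls in knockdown cultures, that of Dync1i2 stood in each of the 6 single-array omissions, with differences of -4.68 to -1.98, the smallest without axonal array 1. With only the 6 knockdown arrays in the fit it did not pass (SE 1.31, limma adjusted p = 0.0672). Dync1i1 lost its call without axonal arrays 1 or 3 or somatodendritic array 3, and Dync1li2 without axonal arrays 1 or 2 or somatodendritic array 3. Dctn3 lost it without axonal arrays 2 or 3, and Dctn2 without axonal arrays 1 or 3 or somatodendritic arrays 1 or 3. Across these omissions the highest limma adjusted p-values were 0.0691, 0.110, 0.0622 and 0.0806. Dync1i2 and Dctn2 were the members that still passed after joint quantile normalization.

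**Figure D5:**
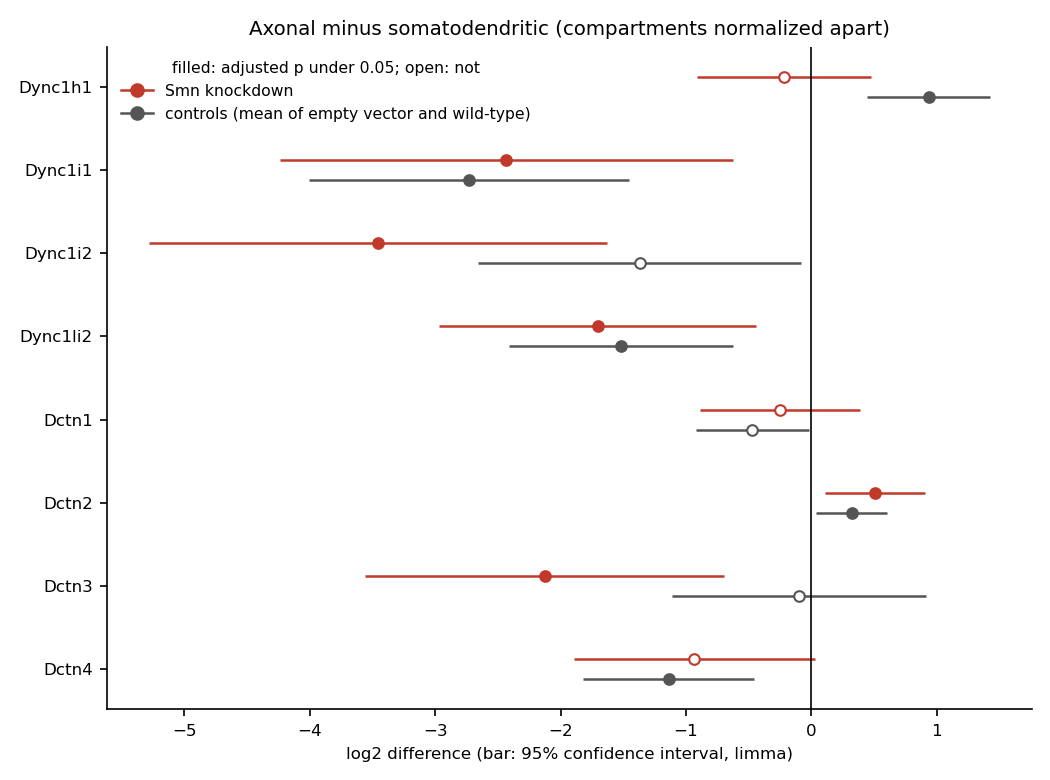
Log2 difference (horizontal axis) between axonal and somatodendritic arrays for 8 members, in Smn knockdown cultures and in the mean of both control groups, with 95% confidence intervals and filled points at a limma adjusted p below 0.05. Dync1i1 and Dync1li2 lie left of 0 in both, Dctn2 right of 0 in both, and Dync1h1 is filled in controls alone.

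Among the pathway lists, 13 of 21 regulators and adaptors, 4 of 6 light chains, 1 of 6 other dynactin subunits and 2 of 2 subunits of the ciliary dynein were lower in control axons than in control cell bodies, where 25.9% of all genes were lower. The median difference was 0.18 over all genes and -0.58 over the 11029 genes above background on all 3 arrays of some group. Of the 21 regulators and adaptors 2 were higher, with a list median of -0.87, and after joint quantile normalization 6 were lower and 2 higher. The lowest p-values belonged to Hook3, an adaptor that activates dynein (-2.02, SE 0.14, limma adjusted p = 4.05e-07), Clip1, a protein of growing microtubule ends that binds Dctn1 (-2.29, SE 0.26, limma adjusted p = 2.25e-05), Nde1, which was not above background on any control axon array, and Trak2, an adaptor for mitochondria, above background on 4 of 6 control axon arrays (-1.72, SE 0.32, limma adjusted p = 0.000674). Of the 6 light chains 1, Dynlrb1, was higher, at 10.07 in axons and 9.11 in cell bodies (limma adjusted p = 0.00121), and after joint quantile normalization 1 was lower and 1 higher. Of the 6 other dynactin subunits 1 was higher, Actr1a, at 9.78 in axons and 8.93 in cell bodies (limma adjusted p = 0.000627), and Dctn6 was lower; after joint quantile normalization 1 was higher and 0 lower, with a list median of 0.44. Neither subunit of the ciliary dynein passed after joint quantile normalization. In control axons 5 of 6 astrocyte, 4 of 5 oligodendrocyte lineage, 4 of 4 cycling cell and 4 of 6 pan-neuronal markers were also lower (list medians of -3.16, -3.17, -3.03 and -1.40). Of the pan-neuronal markers 1 was higher. Microglia and macrophage markers had 2 of 10 higher and 1 lower (median 0.63). Motoneuron markers had 3 of 8 higher and 2 lower (0.40), and fibroblast and meningeal markers 1 of 5 higher and 0 lower (0.27). On wild-type arrays the microglia and macrophage mean ran from 6.96 to 10.39 in axons, against 7.66 to 7.76 in cell bodies. The part of any marker list in these differences was not tested.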

How the data were processed

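The deposited table holds log2 expression values made by the authors, 45101 probe sets on each of 18 arrays; the sources used here do not give the software. Per the labels' protocols, RNA of each compartment was amplified linearly in 2 rounds, labelled with biotin and hybridised to 1 array per sample. Sorted values differed by at most 0.0048 among somatodendritic and 0.0125 among axonal arrays, with medians of 5.948 in axonal and 5.774 in somatodendritic arrays, so each compartment had been brought to a distribution of its own. Probe sets were named from the platform annotation: 34958 named 1 gene, 932 several and 9211 none, and 34754 were matched by gene identifier to the RefSeq table, which was used for names. The 64 control probe sets and 11 with missing values were left out. Each gene was read from the probe set with the highest average on the 18 arrays. For arrays their number, 3 per group, limits precision.

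Tests used limma 3.58.1 under R 4.3.3 (lmFit, eBayes, Benjamini-Hochberg over 18191 genes, threshold 0.05). Comparisons within a compartment used its 9 arrays, those across compartments and the interaction all 18. A lower bound sets the dim group at the higher of its own value and the array's background. The fit was tested on simulated data. Alternatives changed the probe set choice, the filter, the normalization, the spread estimate and the arrays used. All 9 members are named, and every probe set of theirs is described, some only within a count. Pathway lists name the members of lowest p or those called. The members, lists and rules were chosen with earlier results of these data known.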

Additional observations from a re-analysis of the deposited data

How the results depend on the processing

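Somatodendritic knockdown calls among the members kept their direction and their call under the filter, the normalizations and the trended spread tried. Sorted values of these arrays already differed by at most 0.0048, so normalizing again was a weak test. The other probe set rules changed the probe set of no called member but Dctn1, so they tested no other call. Against wild-type Dctn1 was 0.07 (limma adjusted p = 0.716) by its other probe set. Probe sets not read for the members under these rules called Dync1li2 (1433925_at, 0.39) and Dctn4 (1458541_at, 0.93) higher in knockdown than in wild-type. For Dctn4, 1420862_at (-0.75) and 1420863_at (-0.37) were called lower. With all 18 arrays in a single fit the members called were 0 in place of 3 (somatodendritic knockdown against empty vector, 103 in place of 5088 genes), 0 in place of 6 (against wild-type, 144 in place of 6550 genes) and 0 in place of 1 (empty vector against wild-type, 7 in place of 364 genes). In axons it gave 1 in place of 0 (Dync1i2, knockdown against empty vector, 3763 in place of 32 genes) and 2 in place of 0 (Dctn2 and Dctn4, against wild-type, 4483 in place of 18 genes), by construction, since it pools the spread of both compartments; for empty vector against wild-type in axons it called 53 in place of 0 genes. In the axonal knockdown comparison with empty vector, genes called were 154 with a filter on dim genes, 57 without probe sets marked as reading several transcripts, 69 after joint quantile normalization, 13 with centred arrays and 17 with a trended spread; against wild-type the filter gave 211.

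Between the compartments, joint quantile normalization left 3 of 5 member calls in controls (6465 in place of 11206 genes) and 2 of 5 in knockdown cultures, and leaving out the 2 least correlated axonal arrays (knockdown 1 and 3) left 3 of 5 in knockdown, with the remaining array assumed to vary like the others. By its other probe set Dctn1 reversed to 0.81 in controls and 1.67 in knockdown. Omitting single arrays gave 3 members in each case for somatodendritic knockdown against empty vector, 5 to 7 against wild-type, 0 to 2 for empty vector against wild-type, 0 in axons, 4 to 6 between control compartments, 2 to 5 between knockdown compartments and 0 to 2 for the interaction. Where not stated, the cause was not tested.

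Of 18 correlations of deviations between arrays with the same title number, 1 exceeded 0.1 (-0.191 to 0.227). Knockdown titles follow another scheme than control titles, so their numbers need not match. Arrays with unlike numbers were not compared, so this cannot decide whether arrays are paired by title number. With that number as a replicate block, empty vector against wild-type called 0 members in cell bodies (164 genes, Dync1h1 limma adjusted p = 0.10), 0 in axons (0 genes for either knockdown comparison) and 5 between control compartments, where Dctn2 lost its call (adjusted p = 0.0790) and Dync1i2 gained it (adjusted p = 0.000339), making 1 higher and 4 lower in place of 2 and 3.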

Other observations

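The only axonal values of the pathway lists at an unadjusted limma p under 0.05 between knockdown and empty vector were those of 3 of 21 regulators. Of all genes 18.2% reached that level. Nde1 was at 7.30 in knockdown axons, above background on 2 of 3 arrays, and at 5.88 in empty vector axons, above it on none (limma adjusted p = 0.0647). The background level was 7.22, 7.20 and 7.01 on these knockdown arrays and 6.86, 7.15 and 6.39 on the empty vector arrays, so no fold is given. Hook3 was at 7.11 in knockdown axons and 8.18 in empty vector axons (-1.06, SE 0.29, limma adjusted p = 0.120). Bicd2 was at 10.34 in knockdown axons and 8.04 in empty vector axons (2.30, SE 0.97, limma adjusted p = 0.262). None passed the adjusted threshold.

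Rises of Dynll2, Actr1a, Capzb and Dctn5 were also called in cell bodies against wild-type, by 1.03, 1.44, 0.66 and 0.56 on the log2 scale, with limma adjusted p-values of 3.45e-06, 1.00e-06, 0.00187 and 0.000215. Dynlrb1, a roadblock-type light chain, was at 9.53 in knockdown and 8.84 in wild-type cell bodies (limma adjusted p = 0.00505), and Dynlt3, a Tctex-type light chain, at 11.57 in knockdown and 12.00 in wild-type cell bodies (limma adjusted p = 0.00271). Falls of Nde1 and Hook3 were called against wild-type as well, Nde1 being at least 1.62-fold lower and Hook3 at -0.53 (limma adjusted p = 0.00216). These comparisons share the knockdown arrays with those against empty vector.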
